A study of Mus musculus with 6 samples.

Results

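The Hedgehog pathway receptors and GLI factors were followed in mouse astrocytes that overexpressed JAG1, a ligand of the Notch receptors. They are 9 of the 23282 gene rows that were measured: the co-receptors GAS1, BOC and CDON, the receptor PTCH1, the signal transducer SMO, the transcription factors GLI1, GLI2 and GLI3, and the ligand-binding inhibitor HHIP. The genes were found by symbol, and the family was chosen on measured values of the same comparison that is described here, so the values of these 9 genes are given as a description and without a test. All 6 libraries came from a murine astrocyte line labelled Ink4a-/-, with the tissue given as brain. The paper describes these astrocytes as Ink4a/Arf-/-. The 3 control libraries came from cells with the empty vector pcDNA3.1-puro, and the labels give them the genotype WT although the line itself lacks Ink4a. The 3 JAG1-overexpressing libraries (JAG1 below) came from cells with pcDNA3.1-JAG1-puro. All cells were grown in DMEM with fetal bovine serum, and RNA was sequenced by the QuantSeq 3' mRNA method, which reads the 3' end of each polyadenylated transcript. Whether the libraries of a group are separate transfections is not stated in the sources used here, so p-values measure the spread between these samples, which may be technical.

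A cell that receives no Hedgehog ligand keeps the pathway silent through PTCH1, a membrane protein that inhibits SMO. Ligand bound by PTCH1 together with GAS1, BOC or CDON releases SMO, which acts in the primary cilium and changes the GLI proteins from repressors, mainly GLI3, to activators, mainly GLI2. PTCH1, HHIP and GLI1 are themselves genes that the active pathway switches on, and in the brain the pathway is known for its part in the growth of neural precursors and in signals from neurons to astrocytes.

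The genes lie on several chromosomes. In GRCm38 coordinates of the RefSeq annotation, GAS1 is at chr13:60174405-60177535 on the minus strand, and its coding sequence of 1152 bases stands in a single exon. BOC is at chr16:44485045-44558870 on the minus strand with 19 exons, and CDON at chr9:35421528-35507652 on the plus strand with 20 exons. SMO is at chr6:29735497-29761366 on the plus strand, GLI3 at chr13:15463723-15730026 on the plus strand and GLI1 at chr10:127329882-127341579 on the minus strand.

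The RefSeq promoter table of GRCm38.p6, which runs from 250 bases before to 50 bases after each start site, held 7 of the 9 genes. BOC and GLI1 were missing from it, so the motif searches do not cover them. The promoters of GAS1 and GLI3 are shown because they belong to the co-receptor and the GLI factor whose levels were lower in the JAG1 libraries. Capitals mark GTCTG, the core of a SMAD3-binding element that the study used, searched on both strands.
GAS1 promoter, chr13:60177486-60177785, minus strand: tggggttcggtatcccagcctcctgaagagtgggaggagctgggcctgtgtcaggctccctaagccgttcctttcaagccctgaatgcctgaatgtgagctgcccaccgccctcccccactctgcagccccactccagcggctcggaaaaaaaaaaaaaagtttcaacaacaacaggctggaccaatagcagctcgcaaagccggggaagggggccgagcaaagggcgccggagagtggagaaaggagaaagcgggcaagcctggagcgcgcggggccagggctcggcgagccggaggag
GLI3 promoter, chr13:15463473-15463772, plus strand: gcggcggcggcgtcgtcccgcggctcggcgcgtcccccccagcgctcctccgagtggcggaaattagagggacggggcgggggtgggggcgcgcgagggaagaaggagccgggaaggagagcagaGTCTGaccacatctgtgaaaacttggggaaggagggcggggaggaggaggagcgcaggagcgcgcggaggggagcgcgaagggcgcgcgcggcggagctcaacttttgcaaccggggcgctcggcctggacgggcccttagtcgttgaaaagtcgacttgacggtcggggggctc

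GTCTG stood in the GLI3 window 125 bases before the start site and was not found in the GAS1 window. It was found in 5 of the 7 promoters (GLI2, SMO, CDON, GLI3 and PTCH1), while 49.6% of all 32851 promoters in the table held it. The CDON and PTCH1 windows lie at start sites inside the annotated gene. By RefSeq coordinates the start sites used for GLI2 and HHIP also lie inside the gene, though closer to its first base. The GLI motif GACCACCCA was found in none of the 7 promoters and in 0.253% of all promoters, its core CCACCCA in none of the 7 and in 9.3% of all, and GTGGGAA, the motif of the Notch effector RBPJ, in none of the 7 and in 6.38% of all. A match or its absence describes only the letters in these windows.

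The libraries held between 14341634 and 20489062 reads, and 11712 genes had enough reads to be tested. Levels are given as CPM (read counts scaled to a library of 1e+06 reads) after TMM normalization, with the SD over 3 libraries. Because a 3' library takes about 1 read from each transcript end, CPM was not divided by transcript length, and levels of different genes can be set side by side only on that understanding. Of the 11712 genes, 55.1% were called different between the groups (edgeR quasi-likelihood test, adjusted p under 0.05), 27.4% higher and 27.7% lower in the JAG1 libraries, and in 62% the 3 control and 3 JAG1 values did not overlap. The standard error (SE) of a log2 fold change was computed back from this test. It is the absolute log2 fold change divided by the square root of the test's F statistic, also for the 9 genes. JAG1 reads rose from 10.3 ± 1.18 to 14.2 ± 0.862 CPM (n = 3 each, log2 fold change 0.46, SE 0.111, edgeR adjusted p = 0.00446), and reads at the 3' end of the mouse gene need not include a transcript that ends in the vector. The astrocyte label had little support in markers: GFAP and AQP4 had 0 reads in all 6 libraries, SLC1A2 and SLC1A3 at most 2 reads in any, and the summed level of 12 astrocyte markers was 311 to 370 CPM in control and 108 to 122 CPM in JAG1 libraries. Most of these sums came from SOX9, at 181 ± 4.64 and 18.0 ± 1.25 CPM, and GJA1, at 151 ± 35.8 and 96.7 ± 8.65 CPM. Of the 6 tested astrocyte markers, 5 were lower, SOX9 and GJA1 among them. The 7 fibroblast markers summed to 507 to 554 CPM in control and 276 to 323 CPM in JAG1 libraries, and of the 6 tested, 4 were lower, PDGFRA was neither, and COL1A2 was higher, at 3.35 ± 0.528 and 50.7 ± 6.20 CPM. The 6 neuron markers summed to 76.8 to 84.5 CPM in control and 8.12 to 9.29 CPM in JAG1 libraries, nearly all of it from TUBB3 (78.2 ± 4.67 and 8.40 ± 0.550 CPM), with SYT1 and SNAP25 at 0 reads everywhere. Microglia markers summed to 3.24 to 3.97 CPM in control and 1.55 to 2.34 CPM in JAG1 libraries, oligodendrocyte markers to 0.523 to 1.19 and 0.243 to 0.698 CPM, and endothelial markers to at most 0.322 CPM in any library. The part of cell make-up in the results below was not tested, and in bulk RNA fewer cells of a type and less RNA per cell cannot be told apart.

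Of the 9 genes, 6 had enough reads to be tested, and in the fit over all genes 2 of them were called higher (BOC and CDON), 3 lower (GAS1, GLI3 and SMO) and 1 neither (GLI1). The libraries of the groups did not overlap for the first 5. These counts stand beside the 55.1% and 62% over all genes, and since the genes were chosen on this contrast, nothing is read from them. PTCH1, GLI2 and HHIP were at or near the detection limit. A count of 3 reads, taken as the limit, corresponded to 0.148 to 0.206 CPM depending on the library, and this limit covers counting error only.

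**Figure D1:**
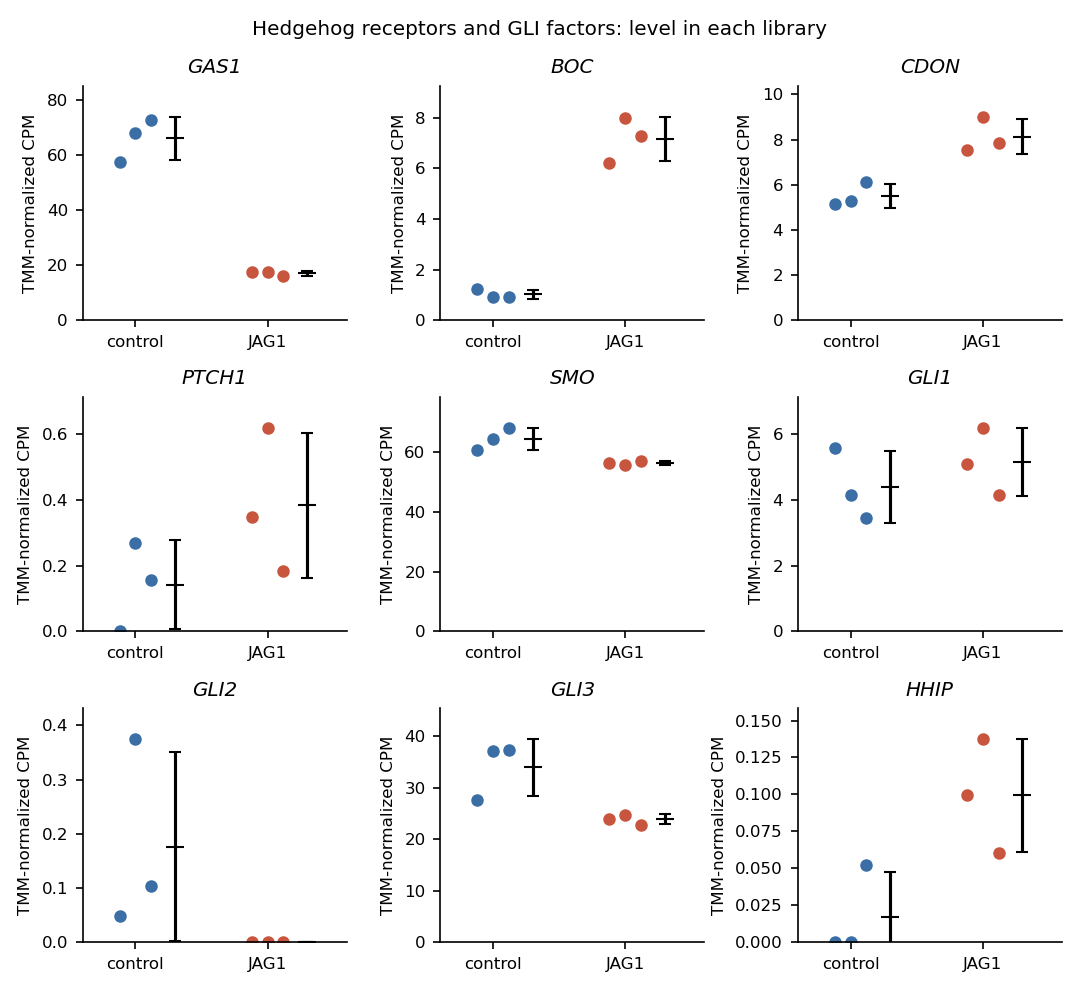
TMM-normalized CPM (vertical axes, each starting at 0) of the 9 genes in the 3 control (blue) and 3 JAG1 (red) libraries, each point a library and the black bars the mean and SD, cut at 0. GAS1 lay at 57.5 to 72.8 CPM in control and 16.0 to 17.5 CPM in JAG1 libraries, BOC at 0.913 to 1.23 and 6.23 to 7.98 CPM, and the GLI1 groups overlapped.

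The co-receptors went in opposite directions, GAS1 being lower and BOC and CDON higher in the JAG1 libraries. GAS1, a protein tethered to the membrane by a lipid anchor that helps PTCH1 bind ligand and also binds the growth factor receptor RET, had 1164, 1266 and 1392 reads in the control libraries and 351, 255 and 264 in the JAG1 libraries. These are levels of 57.5, 68.0 and 72.8 CPM against 17.5, 17.5 and 16.0 CPM. Every control library stood above every JAG1 library, with the lowest control value more than 3 times the highest JAG1 value. The mean level was 66.1 ± 7.84 CPM in control and 17.0 ± 0.857 CPM in JAG1 cells, a 3.88-fold lower level (log2 fold change −1.96, SE 0.0966). The annotated antisense transcript GM48488 reaches only the 5' part of GAS1, away from the 3' end where a 3' library has its reads.

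BOC, an immunoglobulin and fibronectin repeat protein that binds Hedgehog ligand, was scarce in control cells. It had 25, 17 and 18 reads in the control libraries and 125, 116 and 120 reads in the JAG1 libraries, or 1.23, 0.913 and 0.942 CPM against 6.23, 7.98 and 7.29 CPM. All JAG1 libraries lay well above all control libraries. The mean was 1.03 ± 0.178 CPM in control and 7.17 ± 0.882 CPM in JAG1 cells, a 6.86-fold higher level (log2 fold change 2.78, SE 0.196), and the 60 control reads in all limit the precision of that ratio.

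CDON, the close relative of BOC with the same ligand-binding role, had 5.14, 5.26 and 6.12 CPM in the control libraries and 7.53, 9.01 and 7.84 CPM in the JAG1 libraries. The groups did not overlap, but the gap between them was smaller than for GAS1 or BOC. The mean level was 1.47-fold higher, 8.13 ± 0.785 against 5.51 ± 0.536 CPM (log2 fold change 0.56, SE 0.133).

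Summed over the 3 co-receptors, the level was 72.6 ± 8.12 CPM in control and 32.3 ± 1.93 CPM in JAG1 cells. GAS1 gave 90.02, 91.7 and 91.2% of the co-receptor reads in the control libraries and 56.0, 50.8 and 51.5% in the JAG1 libraries. The exact 95% binomial intervals of these shares ran from 88.3 to 93.1% over the control libraries and from 46.3 to 59.9% over the JAG1 libraries, covering counting error only. BOC gave 1.45 ± 0.421% of the reads in control and 22.1 ± 1.92% in JAG1 cells, and CDON 7.60 ± 0.476% and 25.1 ± 1.01%. GAS1 reads exceeded BOC reads by a factor of 66.1 ± 17.0 in control and of 2.40 ± 0.352 in JAG1 libraries. GAS1 was still the most abundant of the 3 in every library.

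**Figure D2:**
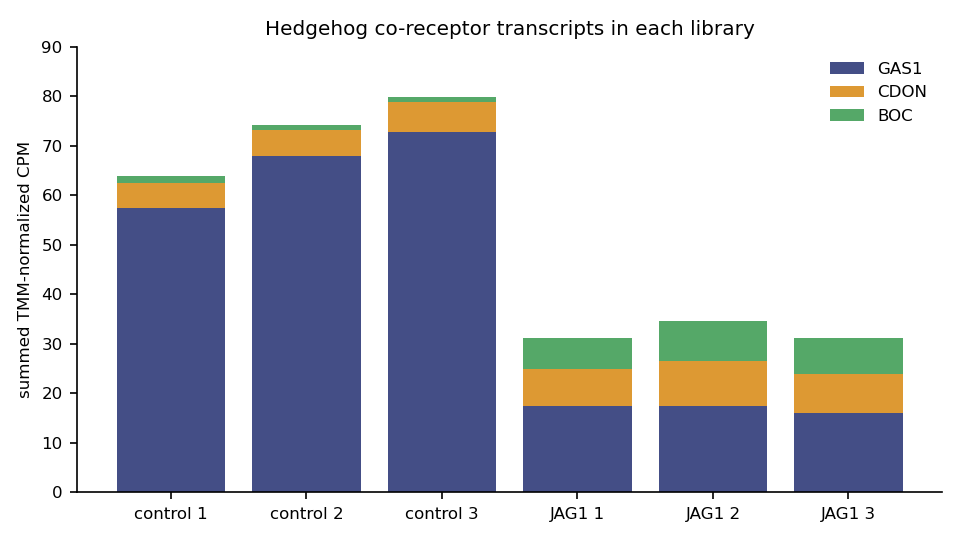
Stacked TMM-normalized CPM (vertical axis, from 0) of GAS1, CDON and BOC in each of the 6 libraries. The sum was 72.6 ± 8.12 CPM in control and 32.3 ± 1.93 CPM in JAG1 libraries, and the GAS1 segment was smaller and those of CDON and BOC larger in the JAG1 libraries.

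PTCH1, the receptor and also a gene that GLI activators switch on, had 0, 5 and 3 reads in the control libraries and 7, 9 and 3 reads in the JAG1 libraries. The groups overlapped, and the 8 and 19 reads in all were too few for the gene to be tested. HHIP, a membrane-bound decoy that sequesters ligand, had 0, 0 and 1 read in control and 2, 2 and 1 reads in JAG1 libraries, all at or under the limit. Thus both genes that the pathway uses as negative feedback at the cell surface were scarcely detected in either group at this depth.

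SMO, which passes the signal from the membrane to the GLI proteins, had the highest mean level of the 9 genes over the 6 libraries, although GAS1 stood above it in control replicates 2 and 3. It had 60.5, 64.1 and 68.1 CPM in the control libraries and 56.4, 55.5 and 56.7 CPM in the JAG1 libraries. The JAG1 values were close together and lay just under the lowest control value. The mean was 64.2 ± 3.76 CPM in control and 56.2 ± 0.618 CPM in JAG1 cells (log2 fold change −0.19, SE 0.0643), and the call of SMO was lost when control replicate 2, control replicate 3 or any 1 of the JAG1 replicates was left out, at log2 fold changes of −0.15 to −0.20.

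GLI3, the factor that acts mainly as a repressor after it has been cut, was the most abundant GLI gene in every library. It had 558, 691 and 712 reads in the control libraries and 480, 360 and 376 in the JAG1 libraries, or 27.6, 37.1 and 37.2 CPM against 23.9, 24.8 and 22.8 CPM. Control replicate 1 stood apart from the other controls and close to the JAG1 libraries, but the groups did not overlap. The mean level was 1.42-fold lower, 23.8 ± 0.969 against 34.0 ± 5.55 CPM (log2 fold change −0.51, SE 0.113). GLI2, the main activator, had 1, 7 and 2 reads in the control libraries and 0 reads in each JAG1 library, which allows a level of up to 0.150, 0.206 and 0.182 CPM. With 7 of the 10 control reads in 1 library, no change was given for it.

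GLI1, an activator whose own gene is a widely used readout of the pathway, had 113, 77 and 66 reads in the control libraries and 102, 90 and 68 reads in the JAG1 libraries. The levels were 5.58, 4.13 and 3.45 CPM against 5.08, 6.19 and 4.13 CPM, and the groups overlapped. The mean was 4.39 ± 1.09 CPM in control and 5.14 ± 1.03 CPM in JAG1 cells (log2 fold change 0.22, SE 0.207). These counts could not be assigned to GLI1 with certainty. The annotated 3' end of GLI1 overlaps by 62 bases that of ARHGAP9, a gene on the opposite strand, and ARHGAP9 was listed with 114, 74 and 68 reads in control and 106, 84 and 71 reads in JAG1 libraries. The counts of the neighbouring genes thus differed by at most 6 reads in any library, and their totals of 516 (GLI1) and 517 (ARHGAP9) by 0.19%. The sources used here do not state whether the counting used strand, so reads of GLI1 and ARHGAP9 cannot be told apart. Among 462 pairs of genes on opposite strands with overlapping 3' ends and at least 100 reads in 1 gene, 56 (12.1%) had totals within 10% of each other, and among 759 pairs with ends up to 2000 bases apart, 20 (2.64%) had. Of the overlapping pairs with a gene from the lists used here, only GLI1 and ARHGAP9 were this close. Totals were 69 and 1741 reads for S100B and DIP2A (overlap 1731 bases) and 40 and 2707 for CSF1R and HMGXB3 (873 bases). They were 10468 and 5636 for PMPCA and INPP5E (874 bases). Whether reads were counted on both strands was not tested.

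The order of levels differed between the groups. In control cells GAS1 and SMO came first with overlapping ranges, then GLI3, then CDON and GLI1 with overlapping ranges, then BOC, with PTCH1, GLI2 and HHIP last. In JAG1 cells SMO came first, then GLI3, then GAS1, then CDON and BOC with overlapping ranges, then GLI1. GLI1 was read together with ARHGAP9 in both orders.

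The pattern of GAS1 over the 6 libraries was most like those of SAMD5, FNDC4 and BDNF, by the Euclidean distance of the centred log2 CPM (0.142, 0.158 and 0.190). BDNF, a neurotrophin, had 176 ± 24.4 CPM in control and 49.5 ± 1.86 CPM in JAG1 cells. SMO was most like RAD1, EMP1 and PRKAR1A (0.0382, 0.0578 and 0.0588), of which PRKAR1A, a regulatory subunit of protein kinase A, also belongs to the list of transduction genes below.

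Along its chromosome GAS1 had no tested neighbours that all moved with it. Neighbours were taken from the 11090 tested genes whose symbol had a RefSeq position. The 5 nearest of these on each side lay between −0.725 and 2.19 Mb from the start of GAS1. Of them, 3 were higher, 5 lower and 2 neither, with log2 fold changes from −0.86 to 2.54. CTLA2A, a cysteine protease inhibitor, was the highest at 2.54 (SE 0.209, edgeR adjusted p = 1.61e-06), and ZFP808 the lowest at −0.86 (SE 0.200, edgeR adjusted p = 0.00378). The 10 tested neighbours of BOC, looked at after the values of BOC were seen, had log2 fold changes from −1.30 to 0.34, with 1 higher, 4 lower and 5 neither. Over all 11712 tested genes 55.1% were called, 27.4% higher and 27.7% lower, and nothing particular to either place is read from the counts of neighbours. The median over the tested genes with a position was −0.54 on chromosome 15 and 0.60 on chromosome 19, and none of the 9 genes lies on either. On the chromosomes that hold the 9 genes the median was between −0.05 and 0.03.

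**Figure D3:**
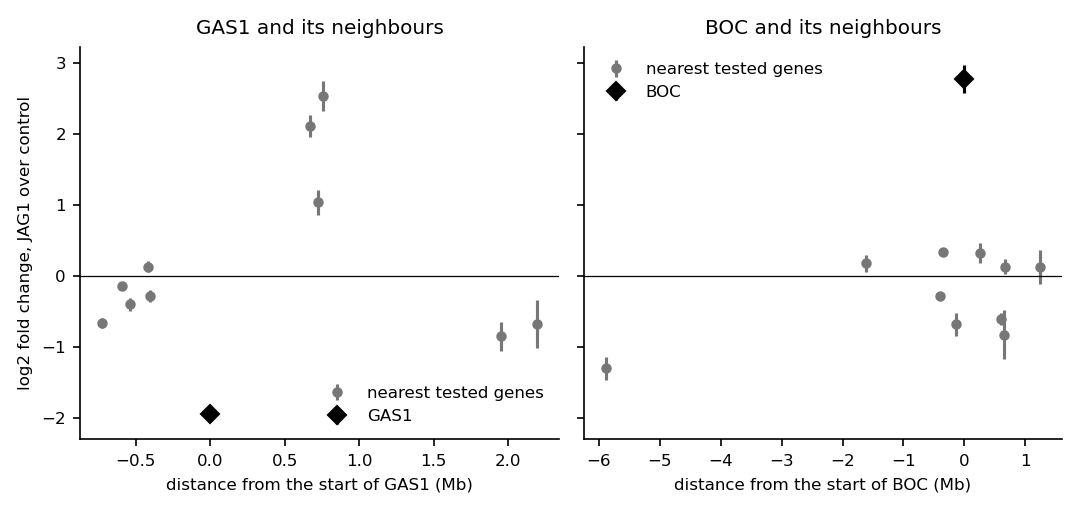
Log2 fold change, JAG1 over control (vertical axis), of GAS1 (left) and BOC (right), drawn as diamonds, and of the 5 nearest tested genes with a RefSeq position on each side, drawn as circles with bars of 1 standard error, against the distance from the start of the gene in megabases. The neighbours of GAS1 ran from −0.86 to 2.54 and those of BOC from −1.30 to 0.34, while GAS1 stood at −1.96 and BOC at 2.78.

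The other genes of the pathway were read from lists chosen by role, and their calls come from the same edgeR fit over all 11712 genes, whose median log2 fold change was 0.0039. The counts of called genes in each list stand beside the 55.1% called over all genes, 27.4% higher and 27.7% lower, and nothing particular to a list is read from them. Most genes of the ligand side had too few reads to be tested. SHH, the main ligand in the brain, had 0 reads in all 6 libraries, and IHH had 0 reads in each control and 2, 1 and 3 reads in the JAG1 libraries. DHH, the third ligand, fell from 1.59 ± 0.148 to 0.572 ± 0.0870 CPM (log2 fold change −1.47, SE 0.291, adjusted p = 0.00129), and DHH lies on chromosome 15. HHAT, which attaches a lipid to the ligands, fell from 5.07 ± 0.0320 to 2.91 ± 0.575 CPM (−0.78, SE 0.171, adjusted p = 0.00257). These 2 genes were the only ones tested of the 9 on the list of ligands and their release, and the other 7 had at most 8 reads in any library.

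Among 10 other cell surface proteins 5 were tested, with a median of −0.31. EVC2 and EVC, partners of SMO at the base of the cilium, rose by 0.57 (SE 0.0988, adjusted p = 0.000501) and 0.49 (SE 0.130, adjusted p = 0.00757) on the log2 scale. GPR161, a receptor in the cilium that restrains the pathway through cyclic AMP, was lower, at 3.29 ± 0.179 CPM in control and 1.66 ± 0.327 CPM in JAG1 cells (−1.005, SE 0.208, adjusted p = 0.00173). ADCY6, an adenylyl cyclase that lies on chromosome 15, was lower too (−0.44, SE 0.0736, adjusted p = 0.000423).

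Of the 28 genes of signal transduction and GLI processing, 27 were tested. Of these, 12 were higher (27.4% over all genes), 8 lower (27.7% over all genes) and 7 neither, with a median of 0.05. ARRB1, a beta-arrestin that binds receptors such as SMO, rose from 3.50 ± 0.141 to 23.2 ± 1.598 CPM (log2 fold change 2.73, SE 0.108, adjusted p = 4.54e-09), while its paralog ARRB2 fell from 4.75 ± 0.266 to 3.38 ± 0.545 CPM (−0.48, adjusted p = 0.0284). SUFU, the inhibitor that holds GLI proteins in the cytoplasm, rose from 18.97 ± 0.579 to 34.6 ± 2.15 CPM (0.87, SE 0.0789, adjusted p = 3.49e-06), and KIF7, a motor protein of the cilium that regulates GLI proteins, fell from 36.5 ± 2.89 to 24.4 ± 2.84 CPM (−0.58, SE 0.0978, adjusted p = 0.000443).

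SUFU lies on chromosome 19, and the 3' end of KIF7 overlaps that of TICRR on the opposite strand by 51 bases, so part of its reads may be shared. ADRBK1 (GRK2), a kinase that phosphorylates SMO, also lies on chromosome 19 and rose by 0.97 (adjusted p = 9.37e-08). KAT2B, an acetyltransferase, and NUMB, an adaptor that promotes the breakdown of GLI1, rose by 0.97 and 0.90 (adjusted p = 1.13e-05 and 0.0138). The casein kinases CSNK1E, which lies on chromosome 15, and CSNK1G1 were lower (−0.66 and −0.65, adjusted p = 9.56e-07 and 1.63e-05).

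The primary cilium, where SMO and the GLI proteins meet, was represented by 57 genes, of which 56 were tested: 10 were higher, 23 lower and 23 neither, with a median of −0.20, against 27.4% higher and 27.7% lower over all genes. BBS9, a subunit of the BBSome, rose from 11.7 ± 1.72 to 32.03 ± 1.64 CPM (1.44, SE 0.106, adjusted p = 6.17e-07), and TMEM67, ARL3 and TMEM231 rose by 1.30, 0.84 and 0.75 (adjusted p = 0.00423, 2.03e-07 and 0.000298). CEP164, which is needed for the centriole to dock at the membrane, fell from 18.0 ± 1.12 to 6.88 ± 0.584 CPM (−1.40, SE 0.106, adjusted p = 8.15e-07). Of the genes for intraflagellar transport, the traffic along the cilium, IFT27, IFT172 and HSPB11 (IFT25) were lower (−1.25, −0.89 and −0.87, adjusted p = 9.45e-06, 0.00519 and 0.000939). IFT27 lies on chromosome 15 and ARL3 on chromosome 19.

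Of the 25 listed genes that GLI factors are known to act on, 14 were tested, with 4 higher, 8 lower, 2 neither and a median of −0.45, against the same shares of 27.4% and 27.7% over all genes. The forkhead factors FOXF1 and FOXF2 were lower, FOXF1 at 19.2 ± 2.39 CPM in control and 1.28 ± 0.487 CPM in JAG1 cells (−3.85, SE 0.197, adjusted p = 3.14e-08) and FOXF2 at 10.1 ± 1.84 and 4.14 ± 0.259 CPM (−1.29, SE 0.158, adjusted p = 3.77e-05). SNAI1, a factor of epithelial-to-mesenchymal transition, and the cyclin CCND2 were lower as well (−1.39 and −0.69, adjusted p = 2.45e-07 and 2.53e-06). The cyclin CCND1 rose from 1570 ± 76.2 to 3056 ± 59.4 CPM (0.96, SE 0.0521, adjusted p = 5.15e-08) and BMP4, a secreted growth factor, from 37.7 ± 5.42 to 88.5 ± 3.26 CPM (1.23, SE 0.0942, adjusted p = 8.53e-07). The 3' end of BMP4 overlaps that of GM15217 on the opposite strand by 89 bases, so part of its reads may be shared. TBX3 and RAB34 rose by 0.47 and 0.25 (adjusted p = 0.0021 and 0.00419). RAB34 also belongs to the cilium list and counts among the higher genes of both lists. Many of these genes also answer to other pathways, and the 2 cyclins went in opposite directions. Leaving out control replicate 2 reduced the 8 lower genes to 5.

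**Figure D4:**
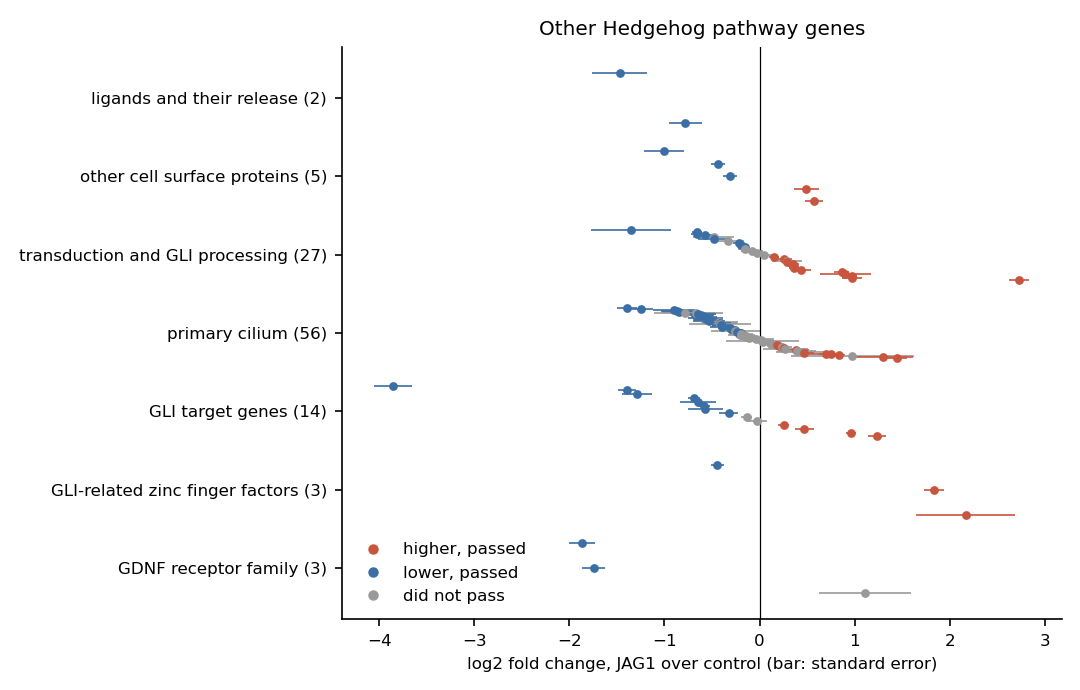
Log2 fold change, JAG1 over control (horizontal axis), of each tested gene in the 7 lists of other Hedgehog-related genes (vertical axis, number tested in brackets), with bars of 1 standard error, red for higher and blue for lower genes past the adjusted p threshold and grey for the rest. The furthest points were ARRB1 at 2.73 and FOXF1 at −3.85, and the cilium list held 23 lower and 10 higher genes.

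Some of these listed genes lie on chromosomes 15 and 19, where the median log2 fold change over the tested genes with a position was −0.54 and 0.60. The 5 tested genes of chromosome 15 were all lower, and of the 8 tested genes of chromosome 19, 5 were higher and 3 neither. Among the 96 tested genes on the other chromosomes, 24 were higher, 42 lower and 30 neither. Over all tested genes 27.4% were higher and 27.7% lower, and nothing particular to the listed genes is read from these counts.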

How the data were processed

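RNA of 6 libraries was made with the QuantSeq 3' kit. For each library the authors deposited, for 23282 gene symbols, the raw read count per gene and a normalized value on a log2 scale. The submitters' processing notes name Bowtie2, bedtools, edgeR and the builds GRCm38 and mm10; versions, roles and the strand setting are not given in the sources used here. Counts were compared in R 4.3.3 with edgeR 4.0.16 (genes kept by filterByExpr at a minimum of 10 reads, TMM, quasi-likelihood test, Benjamini-Hochberg adjustment over 11712 genes, threshold 0.05). The log2 values served only for an alternative. Other alternatives were DESeq2 1.42.0, limma-voom (limma 3.58.1), other scalings and filters, a replicate block and leaving out each library. The replicates of each group differed by more than sampling noise (chi-square per degree of freedom 3.757 to 16.06). The 9 genes and all lists were chosen with earlier results of these data known.

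Named were the 9 genes, JAG1, SHH, IHH, DHH, SUFU, KIF7, in each list up to 4 genes with the largest rise and 4 with the largest fall among those called with at least 1 CPM in the higher group, the 3 genes most like GAS1 and most like SMO, and the 5 tested neighbours of GAS1 on each side; some genes that this rule takes in are not reported here. Positions came from RefSeq (GRCm38.p6) and overlaps from GENCODE M21. All 197 listed symbols were found. The comparison with ARHGAP9 and the counts of overlapping pairs were added after the values were seen.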

Additional observations from a re-analysis of the deposited data

How the results depend on the processing

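The log2 fold changes over 14 alternatives ran from −2.05 to −1.89 for GAS1, 2.70 to 2.93 for BOC, 0.48 to 0.63 for CDON, −0.64 to −0.44 for GLI3, −0.23 to −0.15 for SMO and 0.06 to 0.43 for GLI1. The 9 genes were chosen on this contrast, so these ranges are a description. Leaving out a library gave 2 to 3 lower genes of the 9, SMO being the one lost, and without a filter on low counts 4 were lower, the fourth being GLI2 with 10 reads in control and 0 in JAG1 libraries. The median over all genes was −0.02 to 0.02 under every scaling.

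Leaving out each library gave 2724 to 3256 higher and 2792 to 3344 lower genes in all, 5 to 8 lower GLI target genes (5 without control replicate 2) and 0 to 1 higher genes of the GDNF receptor family (1 without control replicate 2). A filter on a mean of 10 counts left 1 higher GLI-related zinc finger gene in place of 2, since ZIC2 was no longer tested. Leaving out the genes of chromosomes 15 and 19, chosen after seeing the data, left 1 lower ligand-side gene, 1 higher GLI-related zinc finger gene and 1 lower gene of the GDNF receptor family, each in place of 2, by fewer genes tested. DESeq2 called 2930 genes higher and 2997 lower, and the deposited log2 values 3109 and 3289.

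The replicate numbers were not taken to pair the libraries: same-numbered libraries correlated at 0.0614 to 0.148 in their deviations from the group means, though 6 of 6 correlated best with their own number. With the replicate block 3380 genes were higher and 3331 lower, GAS1 stood at −1.95 and BOC at 2.78, the cilium list had 24 lower genes, and 2 of the 9 genes were higher and 3 lower, as without it. Depth limits PTCH1, GLI2 and HHIP most, with at most 9 reads in any library.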

Other observations

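Zinc finger factors related to the GLI family and genes of the GDNF receptor family, whose GFRA co-receptors are relatives of GAS1, were measured as well. GLIS3, which lies on chromosome 19, rose from 5.97 ± 0.491 to 21.3 ± 1.23 CPM (n = 3 each, log2 fold change 1.83, SE 0.103, edgeR adjusted p = 6.99e-08), and GLIS2 fell from 38.8 ± 0.893 to 28.5 ± 0.870 CPM (−0.45, SE 0.0689, edgeR adjusted p = 0.000223). ZIC2, named after its values were seen because it completes the 3 tested genes of the 8 listed, had 3, 4 and 1 reads in the control libraries and 14, 8 and 11 in the JAG1 libraries (2.17, SE 0.521, edgeR adjusted p = 0.00442).

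GDNF, the growth factor that signals through RET with a GFRA co-receptor, fell from 21.6 ± 1.76 to 5.86 ± 1.22 CPM (−1.86, SE 0.138, edgeR adjusted p = 6.42e-07), and GDNF lies on chromosome 15. ARTN, a ligand of the same family, fell from 31.3 ± 3.78 to 9.29 ± 1.16 CPM (−1.74, SE 0.118, edgeR adjusted p = 3.3e-07). RET itself had 0 reads in all 6 libraries, and GFRA1, with 6, 12 and 4 reads in control and 12, 10 and 20 in JAG1 libraries, was not past the threshold (1.11, SE 0.486, edgeR adjusted p = 0.0739). These were the 3 tested genes of the 10 listed.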
